A study of Mus musculus with 16 samples.

Results

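The Serpin family comprised 34 genes of the 54838 in the deposited count table, chosen as protein-coding genes whose mouse symbol starts with Serpin and which had 20 or more counts over the 16 libraries. The table lists 61 protein-coding Serpin genes, so 27 fell below that count, 13 of them with 0 counts in every library. Each of 8 mice gave 1 RNA library of a liver tumor and 1 of the liver tissue around it (peri-tumor tissue); 4 mice were controls and 4 received a decoction of traditional Chinese medicine (TCM). All 4 groups (control peri-tumor, control tumor, TCM peri-tumor and TCM tumor) carry the genotype HrasG12V, an oncogenic form of Ras. Every label also says 3 months, which may be an age or a length of treatment. The protocol names Ras-transgenic and DEN-treated mice together, and whether these mice received DEN, a liver carcinogen, is not stated. No source used here names the promoter that drives the transgene, the herbs of the decoction or its dose. The study sequenced both tissues to look for mechanisms by which the decoction acts on liver tumors.

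Serpins are a superfamily of proteins with a shared fold, most of which inhibit serine proteases. An inhibitory serpin offers an exposed stretch, the reactive centre loop, as bait: the protease cuts it, stays bound, and is inactivated as the serpin changes shape. The hepatocyte secretes much of the plasma's serpin content, including inhibitors of neutrophil elastase (clade A), thrombin (clades C and D), plasmin (clade F) and the first component of complement (clade G). Others have left inhibition behind and carry hormones or, as in clade H, help collagen to fold. The 34 genes fell into 19 of clade A, 6 of clade B, 2 each of clades E and F, and 1 each of clades C, D, G, H and I.

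Total counts per library ran from 13947483 to 16194224, and the 34 genes took 3.52 to 6.14% of them. Markers of hepatocytes were abundant in every library (7 genes, summed level 74470 to 184000 CPM, counts scaled to library size with TMM factors). Alb made up most of that sum (49890 to 137600 CPM), and single markers differed by tissue. Cyp2e1 had 2803 to 4729 CPM around and 95.6 to 419 inside control tumors, and 3203 to 4161 and 159 to 864 in TCM mice. Apoa1 had 5891 to 15140 and 11980 to 23290 CPM in control mice, and 6037 to 8184 and 16260 to 27280 in TCM mice. Of the principal components of log2 CPM over tested genes, component 1 (54.6% of the variance) parted tumor from peri-tumor tissue and component 2 (12.7%) parted treatments. Both libraries of control mouse 4 stood apart on component 2, at 3.85 and -4.49 against -57.0 to -19.2 in the other control libraries and 21.5 to 38.2 in TCM libraries. Values without that mouse are given beside the results they alter. In bulk tissue, fewer cells of a type and less RNA per cell cannot be told apart.

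Levels of the 34 genes were compared on the authors' FPKM scale, which divides counts by a length per gene. That length, as implied by counts and FPKM, can far exceed the coding sequence. It was 10752 bases for Serpinc1, which has 1395 coding bases. For Serpina1b it was 2804 and for Serpina1c 1361 bases, though both have 1239 coding bases. The order of the genes and the FPKM bands therefore depend on the lengths used. Clade A headed the order, with 13 genes of the family at a mean of 100 FPKM or more over the 16 libraries, 5 at 10 to 100, 6 at 1 to 10 and 10 under 1. Serpina1b, a copy of the gene for alpha-1 antitrypsin, the main plasma inhibitor of neutrophil elastase, had the highest mean at 5688 FPKM, followed by Serpina1a at 3534 and Serpina3k at 3188. In peri-tumor tissue the order differed: Serpina3k came first, at 4898 ± 1238 FPKM (SD, n = 4) in control and 5335 ± 425 in TCM mice, and in tumors it came sixth, at 1159 ± 651 and 1358 ± 461. Serpina1b went the other way, from the second place (3604 ± 444 and 4208 ± 180 FPKM) to the first (8003 ± 1411 and 6938 ± 718). In control peri-tumor tissue the means of Serpina1e (3276 ± 3591), Serpina1c (2830 ± 308) and Serpina1a (2691 ± 497) did not differ beyond their spread. Among genes under 1 FPKM were the intracellular inhibitors Serpinb1a, Serpinb6b and Serpinb8 and the neuronal inhibitor Serpini1.

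The low-count filter passed 30 of the 34 genes, and Serpina3c, Serpina3i, Serpina5 and Serpinb9b were not tested. A gene was called when its adjusted p was under 0.05 in edgeR's quasi-likelihood test, with Benjamini-Hochberg adjustment over all 14865 genes tested, and this is the adjusted p given throughout. In tumors against peri-tumor tissue of control mice, 10 of the 30 were called higher and 9 lower, beside 22.0% and 21.2% of all genes tested (43.2% in either direction). In TCM mice 10 were called higher and 8 lower, beside 17.3% and 15.6% of all genes (32.9%). The median log2 fold change of the 30 was -0.19 in control and 0.28 in TCM mice, against 0.00 for all genes tested in both. The tumor and peri-tumor libraries did not overlap for 17 of the 30 genes in control mice, beside 38.9% of all genes, and for 15 in TCM mice, beside 33.9%. Of the 19 and 18 called genes, 12 and 10 stayed called under every alternative run.

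Genes called higher in tumors of both treatments included Serpina1b, Serpina12, Serpinb6a, Serpinf2, Serpinh1 and Serpini1. Called lower in both were Serpina11, Serpina1d, Serpina3k, Serpinc1, Serpinf1 and Serping1. Serpina10 was called lower in control and higher in TCM mice. The plot of tumor effects shows that the called genes did not move by clade: clade A held 3 called higher and 5 called lower of 16 tested in control mice, and 5 and 4 in TCM mice.

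**Figure D1:**
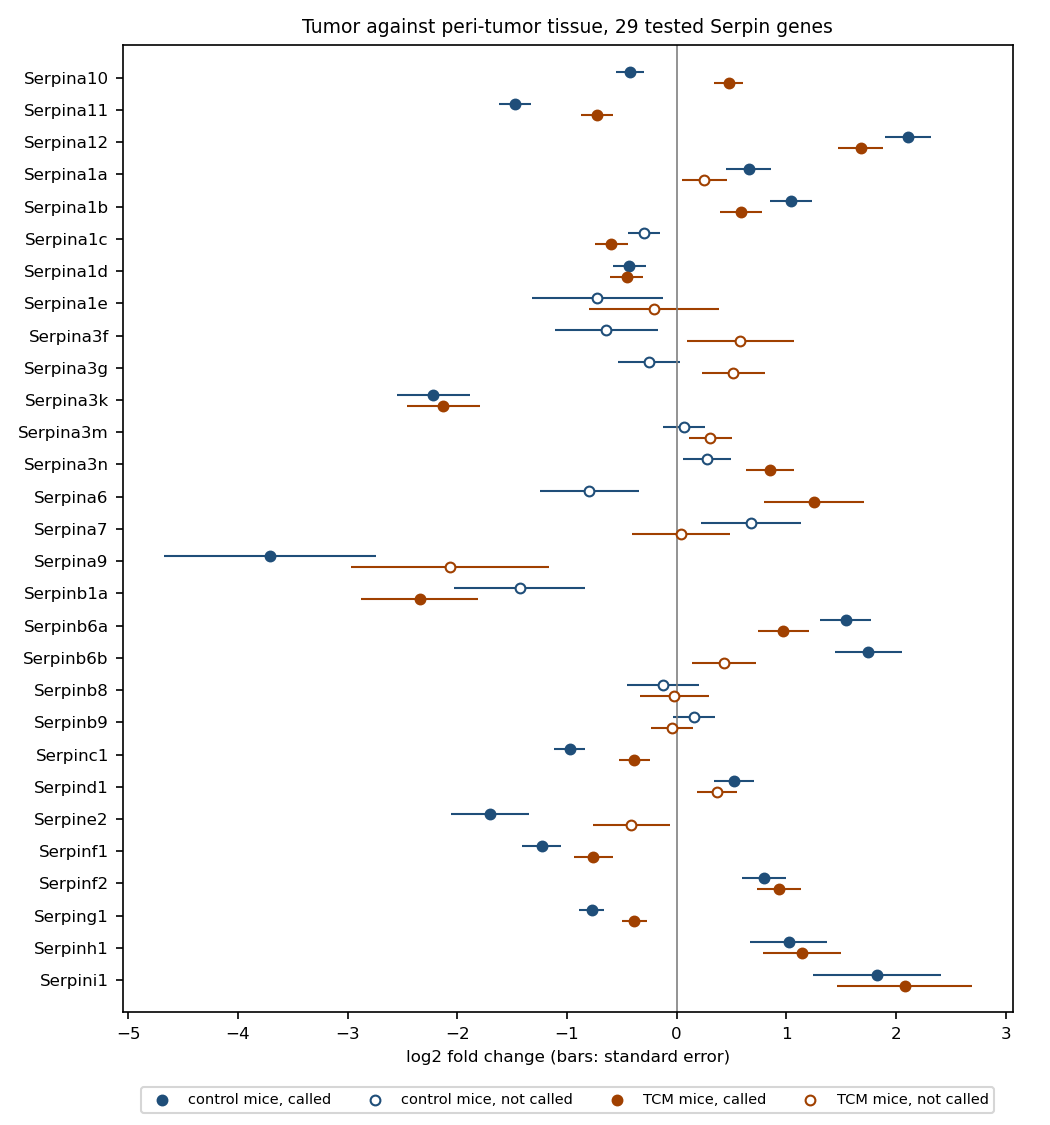
Log2 fold change of tumor against peri-tumor tissue for 29 of the 30 tested Serpin genes, in control (blue) and TCM mice (brown), with standard errors as bars; filled points were called at an adjusted p under 0.05. Serpina12 (2.11 and 1.68) lies far to the right and Serpina3k (-2.22 and -2.13) far to the left in both treatments, and the points of Serpina10 (-0.43 and 0.47) lie on opposite sides of 0.

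Between treatments fewer genes were called. In peri-tumor tissue, 6 of the 30 were called lower in TCM than in control mice (Serpina10, Serpina11, Serpina3g, Serpina3m, Serpina3n and Serping1), beside 7.35% of all genes tested, and 1 was called higher (Serpinb1a), beside 6.71% (14.1% in either direction). The 4 and 4 libraries did not overlap for 12 of the 30, beside 18.0% of all genes. In tumors 2 were called lower, Serpina3n and Serpinb6a, beside 2.72% of all genes (7.28% in either direction). None was called higher in TCM tumors by edgeR, beside 4.55% of all genes, with 3 at an unadjusted p under 0.05 and 1 called by each of DESeq2 and limma-voom (Serpinf1 in both). The median log2 fold change of the 30 was -0.29 in peri-tumor tissue and -0.09 in tumors. These comparisons share libraries with the tumor comparisons and with each other through the same 4 groups.

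**Figure D2:**
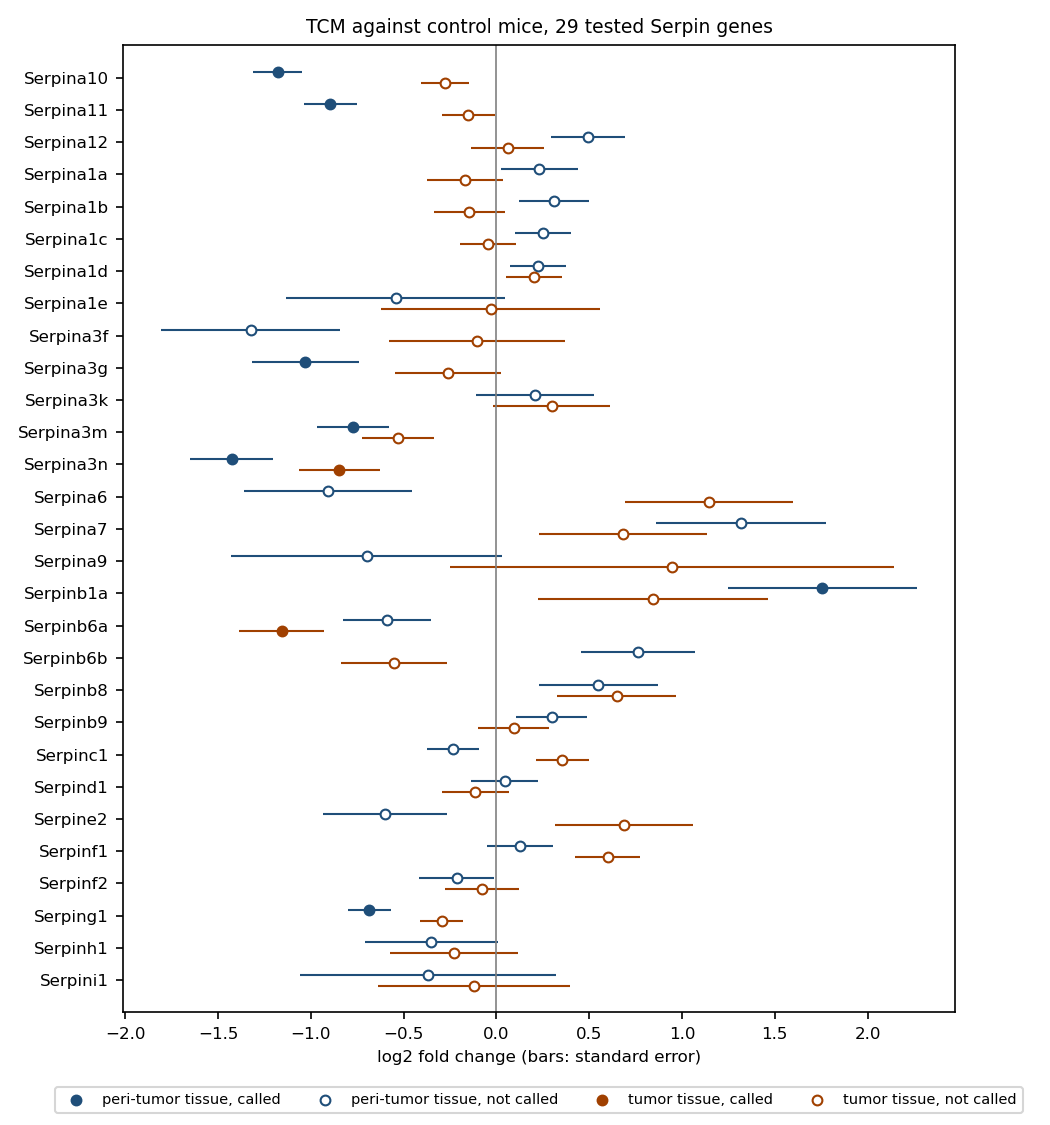
Log2 fold change of TCM against control mice for 29 of the 30 tested Serpin genes in peri-tumor tissue (blue) and tumors (brown), with standard errors as bars; filled points were called at an adjusted p under 0.05. In peri-tumor tissue Serpina3n (-1.43) and Serpina10 (-1.18) are the lowest called genes and Serpinb1a (1.76) the highest; in tumors Serpinb6a (-1.16) and Serpina3n (-0.85) were called.

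The alpha-1 antitrypsin gene is present in the mouse as a cluster of near-identical copies on chromosome 12, of which Serpina1a to Serpina1e were expressed. Their coding sequences are 91.4 to 96.7% identical between pairs, and their reactive centre loops, which set the target protease, 86.2 to 94.2%. In 1 of the 10 pairs, Serpina1a and Serpina1b, the loop was more alike (93.1%) than the coding sequence (91.9%). The coding bases of the loop in GENCODE M21 (build GRCm38, minus strand, last coding exon) are shown because the loop decides which protease a copy takes and holds bases that differ between copies. The stretches lie at chr12:103853750-103853836 for Serpina1a, chr12:103728317-103728403 for Serpina1b, chr12:103895087-103895173 for Serpina1c, chr12:103763755-103763841 for Serpina1d and chr12:103947093-103947179 for Serpina1e. Capitals mark bases that differ from Serpina1a.
Serpina1a: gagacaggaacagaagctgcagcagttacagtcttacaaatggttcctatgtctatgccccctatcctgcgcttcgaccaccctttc
Serpina1b: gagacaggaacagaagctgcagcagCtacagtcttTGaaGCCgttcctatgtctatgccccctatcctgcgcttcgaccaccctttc
Serpina1c: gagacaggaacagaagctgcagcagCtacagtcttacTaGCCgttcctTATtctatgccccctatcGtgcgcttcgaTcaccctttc
Serpina1d: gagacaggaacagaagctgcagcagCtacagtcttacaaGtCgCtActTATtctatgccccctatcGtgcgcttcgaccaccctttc
Serpina1e: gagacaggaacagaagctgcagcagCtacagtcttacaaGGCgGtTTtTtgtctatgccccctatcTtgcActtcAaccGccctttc

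Between 35.6 and 74.2% of the 50-base words of these 5 genes also occur in other genes, so how the authors' counting assigned shared reads could move counts between copies, and single-copy values are uncertain. Serpina1b rose in tumors of both treatments. It had 10152, 8141, 10590 and 12208 CPM in peri-tumor tissue of control mice 1 to 4 and 23370, 26376, 17915 and 17122 in their tumors, 2.06-fold higher (log2 1.04 ± 0.19 SE, adjusted p = 0.000416). TCM mice had 11719, 12387, 14264 and 12558 CPM in peri-tumor tissue and 16564, 18827, 23295 and 17905 in tumors (log2 0.59 ± 0.19, adjusted p = 0.0262). The groups did not overlap in either treatment. The call in TCM mice was lost without peri-tumor library 1, 2 or 4 or tumor library 3 (log2 0.48 to 0.58, adjusted p 0.0548 to 0.0849).

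The other copies changed less or the other way. Serpina1a had 6512, 4786, 7587 and 8124 CPM in control peri-tumor tissue and 11850, 13363, 8863 and 8485 in control tumors, without overlap (log2 0.66 ± 0.21, adjusted p = 0.0176). The call was lost without peri-tumor library 2 or tumor library 1 or 2 (log2 0.50 to 0.58, adjusted p 0.0545 to 0.0751) and in a fit of the 2 control groups alone (0.65, adjusted p = 0.051). TCM mice had 7426, 7559, 8784 and 7943 CPM and 8799, 8970, 12186 and 7852, groups that overlapped and were not called (log2 0.25 ± 0.21, adjusted p = 0.376). Serpina1d was lower in tumors, from 2513 to 2751 CPM in control peri-tumor tissue against 1570 to 2426 in tumors (log2 -0.43 ± 0.15, adjusted p = 0.0309), and from 2924 to 3334 against 1913 to 2625 in TCM mice (log2 -0.45 ± 0.15, adjusted p = 0.0305). The control call was lost without peri-tumor library 1, tumor library 3 or tumor library 4 (log2 -0.41 to -0.37, adjusted p 0.0687 to 0.0795), without both libraries of mouse 4 (log2 -0.42, adjusted p = 0.0557) and in a fit of the 2 control groups alone (adjusted p = 0.0713). The TCM call was lost with no filter on low counts (adjusted p = 0.0533) and without peri-tumor library 2, 3 or 4 or tumor library 1 or 4 (log2 -0.47 to -0.37, adjusted p 0.0509 to 0.0988). Serpina1c fell in TCM tumors, from 4304 to 5475 CPM to 2672 to 3526 (log2 -0.59 ± 0.15, adjusted p = 0.0062), while in control mice it had 3157 to 4304 and 2719 to 3488 CPM (log2 -0.30 ± 0.15, adjusted p = 0.122).

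Serpina1e varied most between mice. It had 2043, 930, 5624 and 16160 CPM in peri-tumor tissue of control mice 1 to 4, a 17.4-fold range, against 2967 to 4425 CPM in control tumors, 2889 to 4982 in TCM peri-tumor tissue and 1833 to 4869 in TCM tumors. Its share of all Serpina1 counts in control peri-tumor tissue thus ran from 4.71 to 37.6%. It was called in no comparison (tumor effect in control mice log2 -0.72 ± 0.59, adjusted p = 0.349), and without control peri-tumor library 4 that tumor effect was 0.39 (adjusted p = 0.523). A sum of the copies does not depend on how reads were split between them, but would still miss any reads left out as ambiguous. With the copies summed, Serpina1 was not called in control mice (log2 0.45 ± 0.24, adjusted p = 0.136) or in TCM mice (log2 0.20 ± 0.24, adjusted p = 0.545). Without both libraries of control mouse 4 the control value was 0.75 and was called, as it was without that mouse's peri-tumor library alone (0.68).

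**Figure D3:**
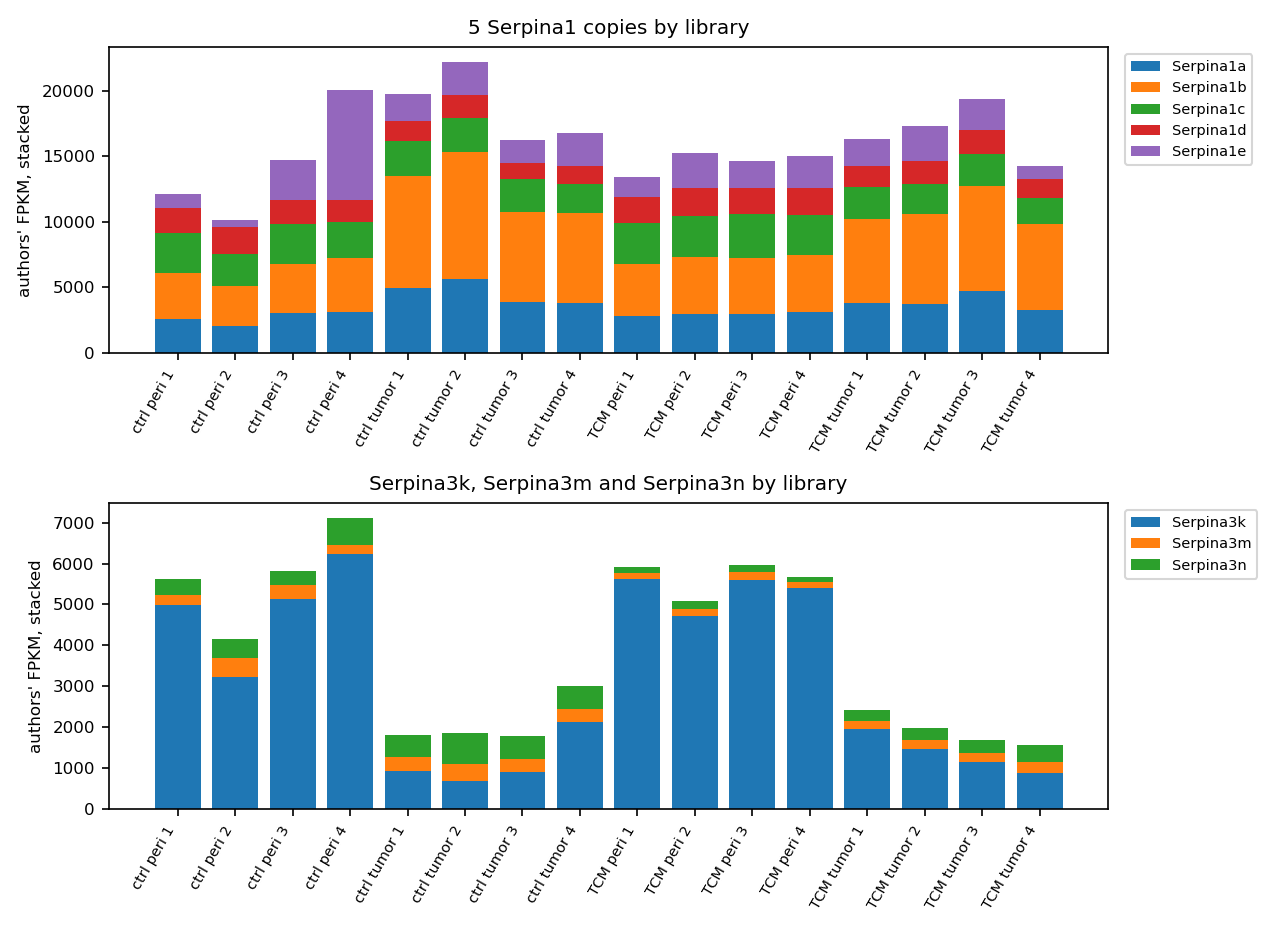
Stacked bars of the authors' FPKM for the 5 Serpina1 copies (top) and for Serpina3k, Serpina3m and Serpina3n (bottom) in each of the 16 libraries, both axes starting at 0. Serpina1e fills a far larger part of the bar in control peri-tumor library 4 (41.9% of the Serpina1 FPKM) than in the others, and Serpina3k fills most of every peri-tumor bar (77.9 to 95.0% of the Serpina3 FPKM) and 36.9 to 80.5% of the tumor bars.

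Serpina3 copies, relatives of antichymotrypsin, also lie on chromosome 12 but have diverged further in the loop. Serpina3k, the most abundant, is a kallikrein-binding protein, and Serpina3n is an acute phase inhibitor of granzyme B and cathepsin G. The loops of the 3 abundant copies (GRCm38, plus strand, chr12:104345263-104345352, chr12:104393763-104393858 and chr12:104413442-104413537) are shown since the copies moved in different directions. Capitals mark bases that differ from Serpina3n once aligned, with gaps left out.
Serpina3k: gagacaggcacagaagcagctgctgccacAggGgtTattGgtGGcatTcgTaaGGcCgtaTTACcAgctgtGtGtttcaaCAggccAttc
Serpina3m: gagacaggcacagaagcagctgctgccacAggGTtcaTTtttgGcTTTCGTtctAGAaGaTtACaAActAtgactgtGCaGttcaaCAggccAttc
Serpina3n: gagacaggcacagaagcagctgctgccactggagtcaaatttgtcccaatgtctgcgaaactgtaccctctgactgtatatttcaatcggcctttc

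Serpina3k and Serpina3m share annotated exons on the same strand and 91.0% of their coding bases, so their counts may mix, while 6.9% of the 50-base words of Serpina3n occur elsewhere. Serpina3k fell in tumors, from 10556, 6332, 10705 and 13552 CPM in control peri-tumor tissue to 1858, 1365, 1717 and 3909 in tumors, 4.65 times lower (log2 -2.22 ± 0.33, adjusted p = 6.71e-05). The fall in TCM mice was from 12275, 9914, 13814 and 11484 CPM to 3734, 2922, 2452 and 1769 (log2 -2.13 ± 0.33, adjusted p = 0.000166). Every tumor library lay below every peri-tumor library of its treatment, and tumor library 4 of the control mice was the highest of its group. Treatment left no called difference in Serpina3k (log2 0.21 ± 0.32 in peri-tumor tissue, interval -0.48 to 0.90, and 0.30 ± 0.32 in tumors, interval -0.39 to 0.99, both 95%).

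Serpina3n was lower in TCM mice in both tissues. In peri-tumor tissue it had 814, 897, 739 and 1469 CPM in control and 320, 393, 437 and 308 in TCM mice, 2.69 times lower (log2 -1.43 ± 0.22, adjusted p = 0.00135). In tumors it had 1072, 1521, 1084 and 1061 CPM in control and 513, 622, 653 and 845 in TCM mice, 1.80 times lower (log2 -0.85 ± 0.22, adjusted p = 0.0315). No TCM library reached the lowest control library of its tissue. The call in tumors was lost without any 1 of control tumor libraries 1, 2 and 3 or TCM tumor libraries 1, 2 and 3 (log2 -0.86 to -0.69, adjusted p 0.054 to 0.109). Serpina3n was also higher in tumors than around them in TCM mice (log2 0.85 ± 0.22, adjusted p = 0.00712), and not called in control mice (log2 0.27 ± 0.22, adjusted p = 0.334), where it was called without both libraries of mouse 4 (0.55, adjusted p = 0.0367) or its peri-tumor library (0.54, adjusted p = 0.0307). The test of the difference of the tumor effects did not call it (log2 0.58 ± 0.31, adjusted p = 0.352).

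Other Serpina3 copies were also lower in TCM peri-tumor tissue. Serpina3m had 594, 965, 728 and 530 CPM in control and 353, 417, 533 and 344 in TCM mice (log2 -0.77 ± 0.19, adjusted p = 0.0171), groups that overlapped at 1 library each, and the call was lost without control library 2 or TCM library 1 (log2 -0.71 and -0.59, adjusted p 0.0562 to 0.0581). Serpina3g, an intracellular cathepsin inhibitor of blood cells, ran from 10.6 to 18.1 CPM in control and from 5.82 to 7.80 in TCM mice (log2 -1.03 ± 0.29, adjusted p = 0.0288), a call lost without control library 2 or 3 or TCM library 1, 2 or 3 (log2 -1.06 to -0.90, adjusted p 0.0534 to 0.0851). Serpina3f ran from 3.49 to 11.9 and from 2.31 to 3.39 CPM, and was not called (log2 -1.32 ± 0.48, adjusted p = 0.0773). It was called without control mouse 4 (-1.56, adjusted p = 0.0279), without its peri-tumor library (-1.55, adjusted p = 0.0326), in a fit of the 2 groups alone (adjusted p = 0.0367), and by DESeq2 and limma-voom (adjusted p = 0.0381 and 0.0241). The summed Serpina3 copies followed Serpina3k, which fell in tumors (log2 -1.53 ± 0.22 and -1.70 ± 0.22) and did not differ by a called amount between treatments (0.08 ± 0.21 and -0.09 ± 0.21).

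Acute phase signalling genes were followed from a list of 9 transcription factors and receptors, among them Stat3, Cebpd and Il6ra, the interleukin 6 receptor. In peri-tumor tissue all 9 were called lower in TCM mice, beside 7.35% of all genes tested, with a median log2 fold change of -1.20. They included Socs3, a feedback inhibitor of that pathway (-2.29, adjusted p = 0.00458), and Osmr, the oncostatin M receptor (-1.40, adjusted p = 0.0153). In TCM tumors 3 of the 9 were lower than in control tumors, beside 2.72% of all genes: Cebpd (-0.89), Nfkbiz (-1.04) and Osmr (-1.11). In control tumors against peri-tumor tissue, 1 was higher and 4 lower (median -0.61), beside 22.0% and 21.2% of all genes. In TCM tumors against peri-tumor tissue, 1 was higher and 0 lower (median -0.08), beside 17.3% and 15.6%. The tumor effects of Serpina3n were 0.27 and 0.85 in these mice. Marker lists of immune cells moved unequally in TCM peri-tumor tissue. The summed level of 12 neutrophil markers was 26.2 to 51.2 CPM in control and 3.33 to 5.02 in TCM mice, but Prtn3, the 1 of 5 tested that was called, made up most of it in control mice (16.7 to 36.2 CPM, and 0.45 to 0.58 in TCM mice), and the other 11 summed to 9.07 to 14.9 and 2.87 to 4.50 CPM. Of T and NK cell markers 1 of 12 was called lower (Gzmb). B and plasma cell markers were summed at 17.9 to 20.7 CPM in control and 25.6 to 41.6 in TCM mice, with 0 of 6 called. For Kupffer cells, the resident macrophages of the liver, 6 of 8 markers were called lower and the summed level was 502 to 1124 against 251 to 324 CPM. Of 10 macrophage markers 3 were called lower (217 to 438 against 147 to 193 CPM), and none of these markers was at 0 in all libraries. Their part in the serpin differences was not tested.

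Among inhibitors of coagulation, Serpinc1 (antithrombin, the main inhibitor of thrombin and factor Xa) was lower in tumors. It had 1391, 1571, 1172 and 1080 CPM in control peri-tumor tissue and 748, 685, 688 and 528 in tumors, with no overlap and a 1.97-fold decrease (log2 -0.98 ± 0.14, adjusted p = 5.46e-05). TCM mice had 1066, 1084, 1190 and 1093 CPM and 761, 882, 947 and 799 (log2 -0.39 ± 0.14, adjusted p = 0.0459), a call that the removal of any 1 of the 8 libraries except tumor library 3 ended (log2 -0.41 to -0.33, adjusted p 0.0676 to 0.126), as did the absence of a filter (adjusted p = 0.0834). The difference of the tumor effects was not called (log2 0.59 ± 0.20, adjusted p = 0.141). The exons of Serpinc1 overlap those of Zbtb37 on the opposite strand, and no source used here says whether the counting used strand. Serpind1 (heparin cofactor, also a thrombin inhibitor) was higher in control tumors, from 565 to 816 CPM to 829 to 1064 (log2 0.53 ± 0.18, adjusted p = 0.0282). That call was lost without peri-tumor library 1, 2 or 3 or tumor library 1 or 2 (log2 0.43 to 0.53, adjusted p 0.0548 to 0.0946), and in TCM mice the gene was not called (log2 0.37 ± 0.18, adjusted p = 0.134).

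Serpina10, the protein Z-dependent inhibitor of factor Xa, had the lowest p of the family between treatments. In peri-tumor tissue it had 282, 314, 269 and 349 CPM in control and 124, 134, 152 and 126 in TCM mice, 2.26 times lower with a wide gap between groups (log2 -1.18 ± 0.13, adjusted p = 0.000186). In tumors it had 231, 217, 257 and 198 CPM in control and 144, 200, 208 and 192 in TCM mice, groups that overlapped (log2 -0.28 ± 0.13, adjusted p = 0.198). Within mice it was lower in the tumor in 4 of 4 control mice and higher in 4 of 4 TCM mice. The tumor effect was -0.43 ± 0.13 in control (adjusted p = 0.0145) and 0.47 ± 0.13 in TCM mice (adjusted p = 0.0107), and the difference between them was 0.90 ± 0.18 (adjusted p = 0.0304). It was the only gene of the 30 called for that difference by edgeR, beside 0.706% of all genes called higher (1.11% in either direction), and none was called lower, with 1 at an unadjusted p under 0.05 and 0 by DESeq2 or limma-voom. The control tumor effect was not called without both libraries of mouse 4 (-0.33, adjusted p = 0.0711). The difference was lost with the mouse as a block (0.89, adjusted p = 0.0621), with no filter (0.91, adjusted p = 0.052) and without control peri-tumor library 2, control tumor library 1 or 2, TCM peri-tumor library 1, 2 or 4 or TCM tumor library 3 (0.84 to 0.95, adjusted p 0.053 to 0.075).

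Serpinf2 (antiplasmin), which holds back fibrinolysis, was higher in tumors. Serpinf2 had 653, 740, 751 and 1264 CPM in control peri-tumor tissue and 1695, 1625, 1473 and 1120 in tumors, with mouse 4 at the top of the first group and the bottom of the second (log2 0.80 ± 0.20, adjusted p = 0.00463). TCM mice had 689, 835, 700 and 713 CPM and 1165, 1428, 1721 and 1289, without overlap (log2 0.93 ± 0.20, adjusted p = 0.00225). Its neighbor Serpinf1 (pigment epithelium-derived factor, a serpin with no known protease target) moved the other way. It had 421, 441, 378 and 288 CPM in control peri-tumor tissue and 221, 140, 166 and 124 in tumors, 2.35 times lower (log2 -1.23 ± 0.18, adjusted p = 5.19e-05). The TCM mice had 440, 384, 453 and 392 CPM and 220, 281, 276 and 209 (log2 -0.76 ± 0.18, adjusted p = 0.00372). Both differences were free of overlap. TCM tumors stood above control tumors in Serpinf1 by a log2 of 0.60 ± 0.18 that missed the threshold (adjusted p = 0.0517), and by 0.52 without control mouse 4 (adjusted p = 0.0436).

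Serpine2 (protease nexin) and Serpini1 (neuroserpin, an inhibitor of tissue plasminogen activator) were scarce. Serpine2 ran from 1.69 to 2.42 CPM in control peri-tumor tissue and from 0.317 to 1.13 in control tumors (log2 -1.70 ± 0.36, adjusted p = 0.00122), against 0.907 to 1.69 and 0.682 to 1.37 CPM in TCM mice (log2 -0.41 ± 0.35, adjusted p = 0.399). Without control mouse 4 it was called higher in TCM than in control tumors (1.25, adjusted p = 0.0368), and the tumor effects differed (1.87, adjusted p = 0.0372). Serpini1 rose from 0.191 to 0.446 CPM to 0.507 to 1.32 in control tumors (log2 1.83 ± 0.58, adjusted p = 0.0189), and the call was lost without peri-tumor library 3 (1.68, adjusted p = 0.0545) or mouse 4 (1.66, adjusted p = 0.073). In TCM mice the groups overlapped at 0.132 to 0.270 and 0.144 to 1.64 CPM (log2 2.08 ± 0.62, adjusted p = 0.0163), and the call was lost without peri-tumor library 1 or tumor library 2 or 4 (1.71 to 1.90, adjusted p 0.0509 to 0.0601) and with limma-voom (1.31, adjusted p = 0.165).

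The proteases and cofactors that these serpins act on were followed as a list of 15 genes. In control tumors 4 were higher and 7 lower, beside 22.0% and 21.2% of all genes: Plat and Plau, the tissue and urokinase plasminogen activators, and Plaur, the urokinase receptor, rose (log2 5.24, 2.11 and 3.04), as did F11, while F7, F9, F10, Klkb1, Proc, Plg and Vtn fell (-1.44 to -0.56). In TCM tumors Plat (3.26), Plau (1.08), Plaur (1.64) and F2 (0.40) rose, and F9, F10, Klkb1 and Vtn fell, beside 17.3% and 15.6% of all genes. In peri-tumor tissue F7 (-0.91), F10 (-0.39) and Vtn (-0.53), which encodes the adhesion protein vitronectin, were lower in TCM mice, beside 7.35% of all genes. In tumors Klkb1 was higher (0.82) and Plaur lower (-1.72) in TCM mice, beside 4.55% and 2.72% of all genes.

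Serping1, the inhibitor of complement C1 and of plasma kallikrein, was lower in tumors and in TCM peri-tumor tissue. It had 1256, 1118, 1154 and 1187 CPM in control peri-tumor tissue, 715, 691, 677 and 673 in control tumors, 654, 697, 835 and 748 in TCM peri-tumor tissue and 473, 632, 525 and 615 in TCM tumors. Control peri-tumor libraries stood above all others. The tumor effect was -0.77 ± 0.12 in control (adjusted p = 7.4e-05) and -0.39 ± 0.12 in TCM mice (adjusted p = 0.018), the latter lost without peri-tumor library 3 or tumor library 1 or 3 (-0.36 to -0.30, adjusted p 0.0538 to 0.0646) and in a fit of the 2 TCM groups alone (adjusted p = 0.0559). In peri-tumor tissue TCM mice were 1.61 times lower (log2 -0.68 ± 0.12, adjusted p = 0.00226), and in tumors the groups did not overlap but were not called (-0.30 ± 0.12, adjusted p = 0.13), except by DESeq2 and limma-voom (adjusted p = 0.044 and 0.0272). Of 9 C1 and lectin pathway genes, all were called lower in control tumors (median -0.94), beside 21.2% of all genes, and 5 in TCM tumors, beside 15.6% (C1ra, C1rb, C1s1, Masp1 and Masp2). Between tumors of the 2 treatments, 1 of the 9 was called higher and 1 lower in TCM mice, beside 4.55% and 2.72% of all genes. In TCM peri-tumor tissue 3 of the 9 were called lower than in control mice, beside 7.35% of all genes, and 0 higher, beside 6.71%. The 3 chains of C1q, C1qa, C1qb and C1qc, were lower there (-1.60, -1.58 and -1.73). C1q is made by macrophages, and all 8 Kupffer cell markers were called lower in control tumors than in control peri-tumor tissue (502 to 1124 CPM summed around them and 125 to 191 inside). Of general macrophage markers, 6 of 10 were called higher there, among them Gpnmb, Trem2 and Ccr2, and 2 lower, Adgre1 and Csf1r. The shares of all genes were 22.0% and 21.2%. The markers summed to 217 to 438 CPM around and 263 to 543 inside. Control mouse 4 had the lowest sum around and the highest inside, and in control mice 1 to 3 the sum was lower inside. Lyz2 had 150, 173.8, 164.3 and 85.94 CPM around and 102.6, 92.27, 68.46 and 235.3 inside in control mice 1 to 4. In every control mouse Cd9 was higher and Csf1r lower inside. The part of these Kupffer cell and macrophage markers in the result was not tested.

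Serpinh1 (HSP47), the collagen chaperone of the endoplasmic reticulum, was higher in tumors. It had 5.80, 8.47, 13.7 and 12.1 CPM in control peri-tumor tissue and 13.5, 11.8, 25.1 and 30.8 in tumors, with overlap (log2 1.02 ± 0.35, adjusted p = 0.0273). TCM mice had 5.75, 7.89, 10.7 and 7.10 CPM and 11.4, 16.3, 13.7 and 28.0, without overlap (log2 1.15 ± 0.36, adjusted p = 0.0212). It was higher in the tumor in 8 of 8 mice. The control call was lost without peri-tumor library 1 or 2, tumor library 3 or 4 (0.74 to 0.93, adjusted p 0.0731 to 0.108) or both libraries of mouse 4 (0.82, adjusted p = 0.103) and with limma-voom (0.79, adjusted p = 0.0633). The TCM call was lost without peri-tumor library 1 or 4 or tumor library 4 (0.83 to 1.10, adjusted p 0.0535 to 0.0877). Of 16 genes for collagens and their processing enzymes, 12 were called higher in control and 11 in TCM tumors, beside 22.0% and 17.3% of all genes, with Col1a1 at 3.78 and 2.98 and Lox at 4.86 and 3.03, while P4ha2 fell in both (-1.49 and -1.11) and Plod1 in control tumors (-0.48). Of 11 stellate cell and fibroblast markers, 6 were called higher in tumors of each treatment, while Lrat fell in both and Dcn in TCM tumors. The 11 summed to 130 to 263 CPM around and 341 to 714 inside control tumors, and to 204 to 260 and 287 to 442 in TCM mice, with none at 0. Of the 6, Col1a1, Col1a2 and Col3a1 are also in the collagen list, and without these 3 the sums were 119 to 219 and 240 to 290 CPM in control and 184 to 232 and 198 to 239 in TCM mice, where the ranges overlap. Of the 8 markers left, 3 were called higher and 1 lower in control tumors, and 3 and 2 in TCM tumors. Reln held much of these sums in tumors. It had 13.6 to 57.6 CPM around and 115.5 to 141.2 inside control tumors, and 26.7 to 45.7 and 76.1 to 126.7 in TCM mice. Dcn had 67.5 to 99.2 and 45.5 to 75.5 CPM in control mice, and 91.4 to 111.1 and 29.4 to 61.4 in TCM mice. The part of these markers in the result was not tested.

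Serpina12 and Serpina11 had the lowest p of the family in control tumors. Serpina12 (vaspin, an inhibitor first described in fat tissue) had 193, 135, 223 and 224 CPM in control peri-tumor tissue and 981, 854, 877 and 633 in tumors, 4.31-fold higher (log2 2.11 ± 0.21, adjusted p = 1.37e-06). In TCM mice it had 220, 226, 367 and 278 CPM and 718, 889, 1017 and 862, 3.20-fold higher (log2 1.68 ± 0.20, adjusted p = 2.01e-05). Serpina11, whose function is little known, had 70.2, 61.7, 74.4 and 87.4 CPM in control peri-tumor tissue and 21.6, 31.7, 26.2 and 26.3 in tumors (log2 -1.47 ± 0.14, adjusted p = 1.43e-06). The TCM mice had 32.1, 41.4, 37.4 and 47.0 CPM and 24.8, 26.0, 24.3 and 20.3 (log2 -0.73 ± 0.14, adjusted p = 0.00114), and in peri-tumor tissue it was 1.86 times lower than in control mice (log2 -0.89 ± 0.14, adjusted p = 0.00149). None of these groups overlapped. Of the 50-base words of Serpina11, 43.9% are shared with Gm28577, which overlaps its exons on the same strand. Serpina9 (centerin, known from germinal center B cells) had 0.242 to 2.72 CPM in control peri-tumor tissue and 0.0634 to 0.119 in tumors (log2 -3.71 ± 0.97, adjusted p = 0.00564), and its value without control peri-tumor library 4 was -2.86. The control tumors held only 1, 1, 1 and 2 counts of Serpina9.

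Serpina6 and Serpina7 carry glucocorticoids and thyroxine in plasma and inhibit no protease. Serpina6 had 389, 523, 348 and 159 CPM in control peri-tumor tissue, 272, 158, 294 and 90.7 in control tumors, 158, 185, 188 and 226 in TCM peri-tumor tissue and 224, 653, 734 and 194 in TCM tumors. TCM tumors 2 and 3 were the highest of all libraries, followed by control peri-tumor library 2. Serpina6 was called higher in TCM tumors than around them (log2 1.25 ± 0.46, adjusted p = 0.045), but not with the mouse as a block (1.02, adjusted p = 0.0545), with limma-voom (1.05, adjusted p = 0.0547), with no filter (adjusted p = 0.0631) or without TCM tumor library 2 or 3 or any 1 of the 4 TCM peri-tumor libraries (0.91 to 1.35, adjusted p 0.0639 to 0.153). Serpina7 had 21.8, 12.9, 27.0 and 87.7 CPM in control peri-tumor tissue and 42.2, 28.3, 72.0 and 96.2 in control tumors, while all 8 TCM libraries lay at 87.5 or above. It was called in no comparison by edgeR with all libraries, at log2 0.68 ± 0.45 for control tumors (adjusted p = 0.245) and 1.32 ± 0.46 for TCM against control peri-tumor tissue (adjusted p = 0.0654). Control mouse 4 was the highest of its groups: with the mouse as a block the control tumor effect was 0.90 (adjusted p = 0.00263) and without both its libraries 1.18 (adjusted p = 0.0045), and without them the treatment difference was 2.17 in peri-tumor tissue (adjusted p = 0.000225) and 1.05 in tumors (adjusted p = 0.0215). Without its tumor library alone neither was called in tumors, at 0.34 for the control tumor effect (adjusted p = 0.60) and 1.02 for TCM against control tumors (adjusted p = 0.197).

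Clade B serpins stay inside cells, where they guard against the cell's own granule and lysosomal proteases. Serpinb6a, an inhibitor of cathepsin G, had 13.5, 20.4, 15.5 and 12.1 CPM in control peri-tumor tissue and 32.5, 53.7, 45.4 and 47.8 in tumors (log2 1.54 ± 0.23, adjusted p = 7.43e-05). TCM mice had 8.66, 11.9, 10.1 and 10.2 CPM and 30.2, 20.5, 13.2 and 16.4 (log2 0.97 ± 0.24, adjusted p = 0.00476). Every TCM tumor lay below every control tumor, 2.23 times lower (log2 -1.16 ± 0.23, adjusted p = 0.0101). This was the 1 treatment call in tumors that held under every alternative run. Exons of Serpinb6a overlap Nqo2 and Ripk1 on the opposite strand. Its relative Serpinb6b ran from 1.27 to 2.10 CPM in control peri-tumor tissue and from 4.24 to 6.99 in tumors (log2 1.75 ± 0.30, adjusted p = 0.000252), and was not called in TCM mice (log2 0.43 ± 0.29, adjusted p = 0.286, difference -1.32 ± 0.42, adjusted p = 0.119).

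Serpinb1a, an inhibitor of neutrophil elastase, was the only serpin called higher in TCM peri-tumor tissue. It had 1.34, 1.09, 0.954 and 0.628 CPM in control and 4.16, 4.32, 3.85 and 1.34 in TCM mice (log2 1.76 ± 0.51, adjusted p = 0.0333), groups that met at 1.34. The call was lost without any 1 of the 4 control libraries or of TCM libraries 1, 2 and 3 (1.59 to 1.92, adjusted p 0.0547 to 0.0825), without both libraries of control mouse 4 (1.59, adjusted p = 0.0528) and with no filter (adjusted p = 0.0503). Within TCM mice it was lower in tumors, at 0.216 to 1.09 CPM (log2 -2.34 ± 0.53, adjusted p = 0.00315). In control tumors the value was not called (-1.43, adjusted p = 0.0642), but was without mouse 4 (-1.88, adjusted p = 0.0474) and by DESeq2 (adjusted p = 0.0389). Serpinb9, the granzyme B inhibitor, ran from 8.73 to 15.4 CPM over all 16 libraries and Serpinb8 from 1.52 to 5.41, and neither was called in any comparison. Of a list of 9 immune granule proteases, 3 could be tested. Prtn3 (log2 -5.75, adjusted p = 1.9e-05) and Gzmb (-4.33, adjusted p = 0.0098) were lower in TCM peri-tumor tissue, beside 7.35% of all genes. Gzmb was scarce in peri-tumor tissue, at 2.80, 3.15, 2.55 and 0.279 CPM in control mice 1 to 4 and 0 to 0.264 in TCM mice. Control mouse 4 thus lay near the TCM mice in Gzmb. In the same comparison 4 of a list of 8 lysosomal cathepsins were lower, beside 7.35% of all genes: Ctsc (-0.74), Ctsl (-0.44), Ctss (-1.72) and Ctsz (-0.47). Whether the clade B serpins measured here inhibit these proteases was not tested.

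**Figure D4:**
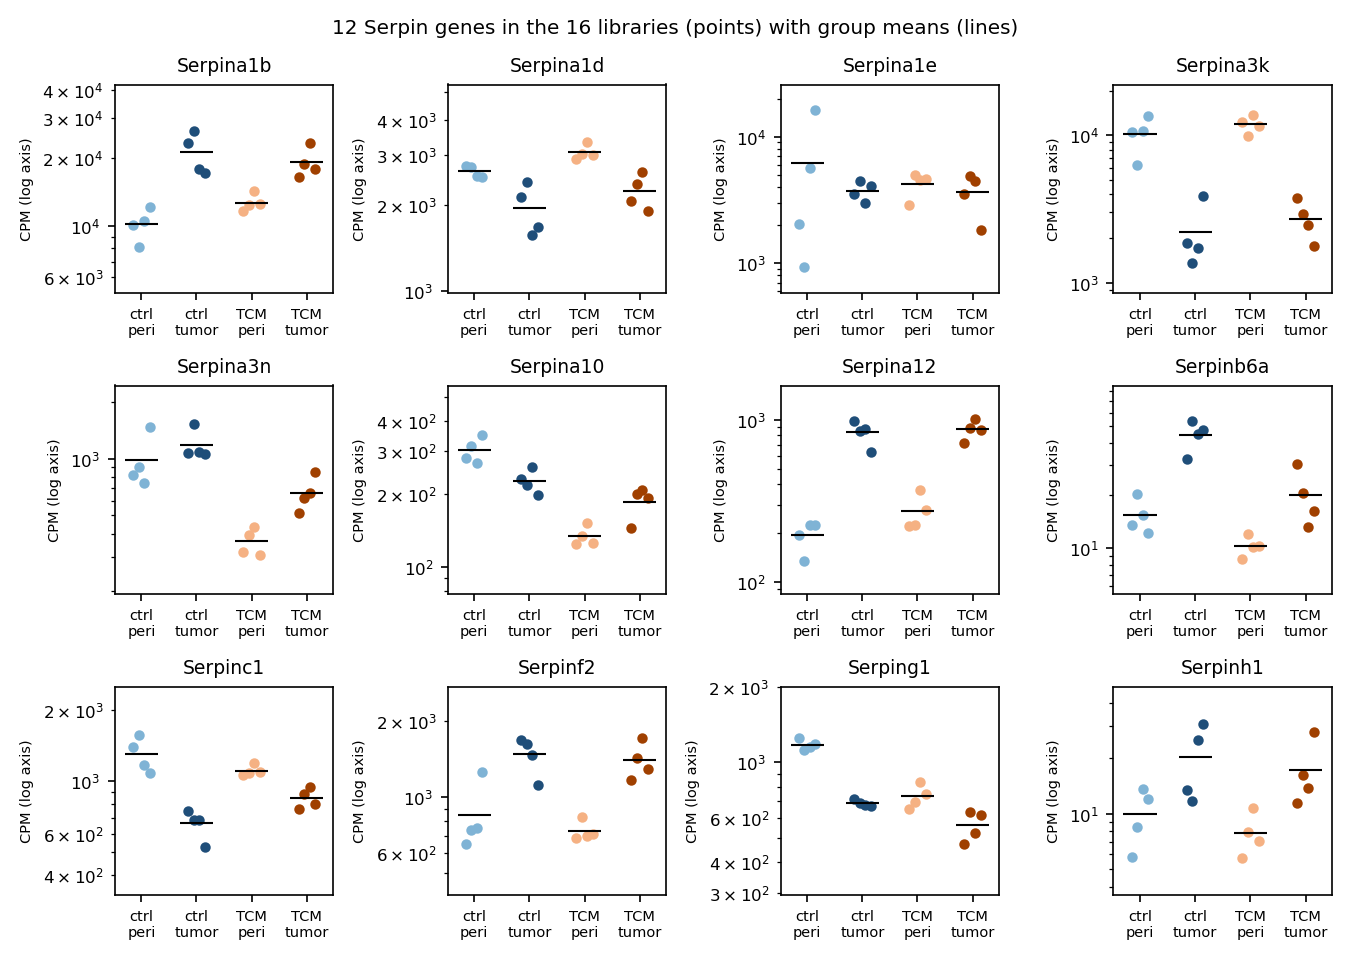
CPM of 12 Serpin genes in every library (points, log axes that differ between panels), with the group mean as a line; groups are control peri-tumor, control tumor, TCM peri-tumor and TCM tumor with 4 libraries each. Serpina12 and Serpinb6a rise and Serpina3k falls from peri-tumor to tumor tissue in both treatments, the TCM points of Serpina3n lie below the control points in both tissues, and the peri-tumor library of control mouse 4 stands high in Serpina1e (16160 CPM) and Serpinf2 (1264).

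The genes whose log2 CPM followed a serpin most closely over the 16 libraries are given as a description, since tissue and treatment groups shape these values. For Serpina3n they were Itih3, an inter-alpha-trypsin inhibitor heavy chain (Spearman rho 0.947), Klhl25 (0.929) and Apcs, the acute phase protein serum amyloid P (0.903). For the summed Serpina1 copies they were Slco2a1 (0.903), Gm8893 (0.888) and Serpind1 (0.885).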

How the data were processed

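RNA of 16 libraries was sequenced by the authors from total RNA isolated with a mirVana kit and a stranded mRNA library kit, per the labels' protocols. The deposited count table holds whole-number counts per gene without scaling, per the file headers and values. The deposited FPKM values are the authors' counts per gene length and library total. They gave the same gene lengths in all libraries (deviation up to 0.00261%) and were used for levels only. Both mm9 and mm10 stand as genome builds, per the submitters' processing notes; no source used here names an aligner or counter. Symbols and coordinates come from GENCODE M21 (GRCm38), and 115 of 54838 genes had no symbol.

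Counts were tested with edgeR 4.0.16 in R 4.3.3: TMM factors, filterByExpr (count minimum 10), 1 model over the 16 libraries with 4 group means (12 residual degrees of freedom), quasi-likelihood tests and Benjamini-Hochberg adjustment per comparison. The model was tested on simulated data. Animal codes pair the tissues of a mouse. With group means removed, the 2 tissues of control mice correlated at 0.155, 0.116, 0.0627 and 0.228, and those of TCM mice at 0.235, 0.0433, 0.0913 and 0.114. The mouse block is an alternative, and TCM and control libraries share only a number. Libraries of a group are separate mice, whether litters were shared is not stated, p-values measure the spread between these samples, and none was a copy of another (chi-square per degree of freedom at least 15.6). Intervals are 95% intervals of the log2 fold change, and depth was similar across libraries. Alternatives also covered DESeq2 1.42.0, limma-voom (limma 3.58.1), RLE factors, other filters, fewer groups, summed copies and left-out libraries.

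Values per library are given for the top 3 genes by FPKM, for up to 5 called genes with the lowest p and at least 5 CPM in each comparison, for Serpina1 and Serpina3 copies (as values or ranges) and for genes called in opposite directions within a clade. Other values per library, such as those of Serpina6, Serpina7 and Serpinh1, were added after they were seen. The family, the gene lists and the likeness rule were chosen with earlier results of these data known. No protein sequence was used here. Results of 1 tested member are counted in totals over the family but not reported here.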

Additional observations from a re-analysis of the deposited data

Results flagged for a closer look

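In groups of 4 libraries, a library was marked when its gap to the nearest of the others was a large part of the group's range (Dixon's test at 95%). Of 124 groups of genes and summed copies, 6 were marked, beside 6.2 that chance gives at 1 in 20. Of the 6, 3 were libraries of control mouse 4. Serpinf2 had 1264 CPM in its peri-tumor library, against 653 to 751. In its tumor library the summed Serpina3 copies had 5614 CPM, against 3493 to 3780, and Serpina9 had 0.119, against 0.0634 to 0.0693. For Serpina9 that is 2 counts, against 1 in each of the other control tumors. In other mice, Serpina3n had 1521 CPM in control tumor 2, against 1061 to 1084, Serpinf2 had 835 in TCM peri-tumor 2, against 689 to 713, and Serpinb1a had 1.34 in TCM peri-tumor 4, against 3.85 to 4.32.

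Serpina10 was marked because its tumor effect differed between treatments in the test of the difference itself, by a log2 of 0.90 (adjusted p = 0.0304 in edgeR's quasi-likelihood test). No cause was tested for any of these.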

How the results depend on the processing

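No called result changed direction under an alternative. The 10 genes called higher in control tumors became 6 to 12 with 1 library left out, and the 9 lower 8 to 10. In TCM mice the 10 higher became 6 to 10 and the 8 lower 5 to 7. The 1 higher in TCM peri-tumor tissue became 2 with DESeq2 or limma-voom, 0 with no filter and 0 to 1 with a library left out. The 0 higher in TCM tumors became 1 with RLE factors, DESeq2, limma-voom, a filter of 1 CPM in 4 libraries or the replicate number as a block, 3 without control mouse 4 and 0 to 1 with a library left out, and the 2 lower became 4 with limma-voom and 1 to 2 with a library left out. The 1 gene called higher for the difference of tumor effects became 4 with DESeq2, 2 with limma-voom, 0 with no filter, 0 with the mouse as a replicate block, 2 without control mouse 4 and 0 to 2 with a library left out. The summed Serpina1 copies in control tumors became called with limma-voom (0.61) and without control mouse 4 (0.75), and ran from 0.28 to 0.68 with a library left out. The causes were not tested.

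Calls that the main test did not make were made in control tumors by limma-voom for Serpina3n (0.47) and Serpina7 and by DESeq2 for Serpina1c (-0.30), in TCM peri-tumor tissue by both tools for Serpina7 (1.33 with DESeq2 and 1.95 with limma-voom), in TCM tumors by limma-voom for Serpina3m (-0.58), and for the difference of tumor effects by DESeq2 for Serpina6 (2.05), Serpina11 (0.74) and Serpinc1 (0.59) and by limma-voom for Serpine2 (1.64).

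The replicate number as a block ended the peri-tumor call of Serpinb1a (log2 1.75, adjusted p = 0.052 in edgeR) and made calls of Serpina7 in peri-tumor tissue (1.62) and Serpinf1 in tumors (0.62). The mouse block changed no call other than those of Serpina6, Serpina7 and Serpina10 given with the results. Of the 8 mice, 7 correlated best with their own number. With 4 mice a group, smaller differences than those called may have been missed, and genes under 1 CPM rest on few counts. Copy by copy values in Serpina1 and Serpina3 depend on how the authors' counting assigned shared reads. Whether Serpinc1 and Serpinb6a counts hold reads of genes on the opposite strand was not tested.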

Other observations

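Serpina4-ps1, annotated as an unprocessed pseudogene and so outside the family as chosen, had 24.6 ± 20.2 CPM (SD, n = 4) in control peri-tumor tissue, 0.715 ± 0.997 in control tumors, 28.3 ± 12.7 in TCM peri-tumor tissue and 2.85 ± 2.79 in TCM tumors. Agt, which encodes angiotensinogen, a serpin by fold that does not bear the family's symbol, had 581 ± 53.7, 461 ± 63.8, 451 ± 38.2 and 512 ± 135 CPM in the same order, and was called in no comparison.

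Of 15 genes for folding, export and degradation of secreted proteins, which handle misfolded alpha-1 antitrypsin among others, 3 were called higher and 1 lower in control tumors, beside 43.2% of all genes called in either direction, and 2 higher in TCM tumors, beside 32.9%. Pdia6, a disulfide isomerase, was higher in both (log2 0.67 and 0.79). Of 11 hepatocyte transcription factors known from serpin promoters, 4 were called lower in control tumors, beside 21.2% of all genes, including Nr1h4 (-1.61) and Cebpa (-1.02), and 3 in TCM tumors, beside 15.6%, while Foxa3 was higher in both (0.75 and 0.74). Between treatments, 1 of the 11 was called higher and 1 lower in TCM peri-tumor tissue, beside 6.71% and 7.35% of all genes. In TCM tumors 1 was called higher and 0 lower than in control tumors, beside 4.55% and 2.72%. Nr0b2, a nuclear receptor that represses others, was higher in TCM than in control mice in peri-tumor tissue (0.72) and in tumors (1.45).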
